A study of Oryctolagus cuniculus with 15 samples.

Results

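The data described here are the 6 genes that encode the chains of type IV collagen, COL4A1 to COL4A6, in rabbit corneal keratocytes cultured in 5 extracellular matrix conditions. They were taken by gene identifier from the count and FPKM tables, in which all 6 were found among 23428 genes (15408 of them with a gene symbol), and they are read as the head-to-head pairs COL4A1/COL4A2, COL4A3/COL4A4 and COL4A5/COL4A6. FPKM scales the fragments of a gene to its length and to the size of the library, so FPKM values can be set side by side between genes.

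Type IV collagen is the network-forming collagen of basement membranes, the sheets that separate epithelia and endothelia from the tissue beneath. Each molecule is a trimer: COL4A1 and COL4A2 products form the trimer found in nearly all basement membranes, COL4A3, COL4A4 and COL4A5 products form the trimer known from the glomerulus, the lung and the eye, and COL4A5 and COL4A6 products form a trimer found in skin, smooth muscle and other sites. In the cornea, type IV collagen lies in the epithelial basement membrane and in Descemet's membrane, and keratocytes, the stromal cells in between, can make it after injury.

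Primary keratocytes of New Zealand white rabbits at their first passage were cultured in serum-free medium for 6 days, and bulk RNA-seq was carried out on 3 libraries per condition, each from pooled dishes or matrices of a separate experiment. In 2DC, cells lay on dishes coated with type I collagen, and in 2DF they lay on top of a matrix of fibrillar type I collagen. In 3DF they were embedded within that matrix at 100000 cells/matrix, and in 3DF_50 at 50000 cells/matrix. All of these were incubated in digestion medium before lysis, whereas 2DC_L was a collagen-coated control lysed directly in the dish. The isolation removed epithelium and endothelium by scraping. How many animals stand behind a library was not given in the sources used here, and in bulk RNA fewer transcripts per cell cannot be told apart from fewer cells of a type.

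Between 14626982 and 31804255 reads were counted per library. Within conditions, log2 CPM of any 2 libraries correlated at 0.991 to 0.998, and 3DF replicate 1 was the library least like its own condition (0.991 and 0.992 with the other 3DF libraries, which reached 0.997 with each other). The 7 keratocyte markers matched summed to between 20140 and 43150 FPKM in every library. KRT12, the keratin of corneal epithelium, was listed at 0 in all libraries of 2DC and 2DC_L and reached 4.40 FPKM in 3DF. The 13 epithelial markers summed to between 0.521 and 1.53 FPKM in the collagen-coated libraries and to between 8.94 and 13.9 FPKM in 3DF. Their sums ranged from 1.08 to 7.34 FPKM in 2DF and from 0.210 to 6.89 FPKM in 3DF_50. Among the corneal endothelial markers, ALCAM was measured at 44.9 to 87.5 FPKM in the collagen-coated libraries and at 11.1 to 36.4 FPKM in the matrix libraries, and SLC4A4 at 49.4 to 84.7 and at 7.09 to 48.3 FPKM. The endothelial transporter SLC4A11 stayed between 0.400 and 1.28 FPKM and CA3 at or under 0.194 FPKM in all 15 libraries. The 3 myofibroblast markers matched summed to between 3.19 and 10.4 FPKM in the collagen-coated libraries and to between 0.415 and 4.72 FPKM in the matrix libraries. The 6 vascular endothelial markers summed to between 117 and 119 FPKM in 3DF and to between 33.3 and 75.6 FPKM elsewhere, nearly all of it KDR, with PECAM1 at or under 0.0421 FPKM. Schwann cell markers summed to 4.64 FPKM or less and leukocyte markers to 7.50 FPKM or less.

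COL4A3 and COL4A4 were the type IV collagen of these cells by transcript level. In every one of the 15 libraries these chains together held between 93.2% and 99.0% of the summed FPKM of the 6 genes, and their reads made up between 0.0349% and 0.522% of all reads counted. COL4A3 was read in 2DC at 289, 271 and 187 FPKM in replicates 1, 2 and 3, and COL4A4 at 181, 176 and 115 FPKM. In 2DC_L replicate 3, COL4A3 reached 433 FPKM and stood at rank 103 of all genes in that library.

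The other 4 chains were low everywhere. COL4A1 ranged from 0.463 to 3.80 FPKM, COL4A2 from 0.271 to 1.98, COL4A5 from 0.267 to 2.62 and COL4A6 from 0.0939 to 1.26 FPKM over the 15 libraries. Their counts lay between 11 and 465 reads per library, against 2455 to 61514 reads for COL4A3 and COL4A4. In 3DF vs. 2DC the SE of the log2 fold change was 0.34 to 0.55 for the low chains and 0.20 and 0.19 for COL4A3 and COL4A4. In 2DC vs. 2DC_L it was lower for COL4A2 (0.21) than for COL4A3 (0.28). COL4A5 held 326 reads in 2DC replicate 2 and 91 in replicate 3, with Poisson intervals of 292 to 363 and 73.3 to 112. The source of this spread was not tested. COL4A5, whose product is a partner of the COL4A3 and COL4A4 products in the trimer, was measured at 1.51 ± 0.830 FPKM in 2DC (SD, n = 3), when COL4A3 was at 249 ± 54.6 FPKM. The level of COL4A3 was between 119 and 294 times that of COL4A5 in the 2DC libraries and between 34.4 and 68.5 times in the 3DF_50 libraries.

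**Figure D1:**
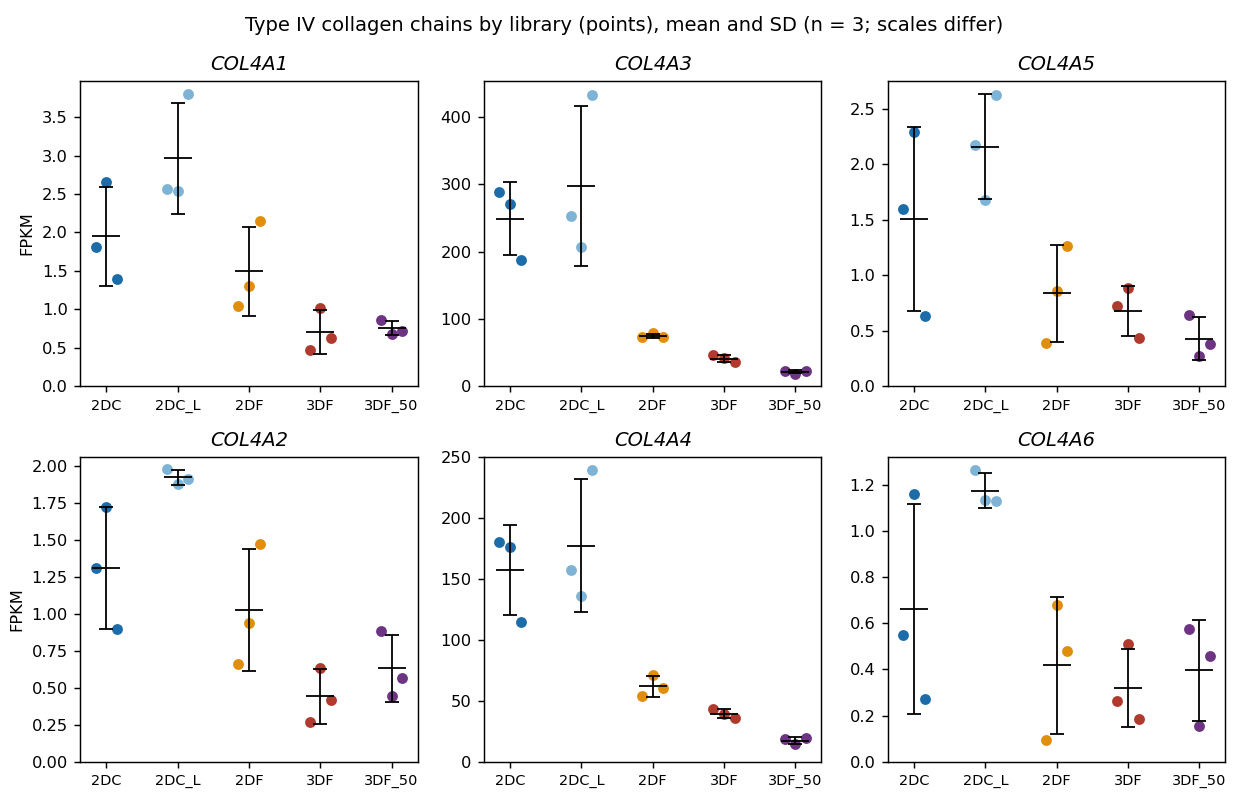
FPKM of the 6 type IV collagen chains in each library (points), with the mean and SD of the 3 libraries of each condition; each panel has its own vertical scale, starting at 0. COL4A3 and COL4A4 step down from the collagen-coated conditions (COL4A3 187 to 433 FPKM) to 2DF, 3DF and 3DF_50 (18.3 to 78.1 FPKM), while the other chains stay at or under 3.80 FPKM.

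The comparison of 3DF with 2DC asks how cells within a fibrillar matrix differ from cells on a coated dish. COL4A3 fell to 45.3, 41.7 and 35.3 FPKM in 3DF replicates 1, 2 and 3. COL4A4 fell to 43.2, 39.5 and 35.8 FPKM. The 3DF and 2DC libraries of both chains did not overlap, as was the case for 5103 of 13493 genes tested. The fall of COL4A3 was 6.15-fold, with a log2 fold change of -2.62 (SE 0.20, adjusted p = 0.000163, edgeR quasi-likelihood test with Benjamini-Hochberg adjustment), which placed it at rank 153 from the lowest of 13493 genes tested. COL4A4 fell 4.01-fold, by a log2 fold change of -2.0 (SE 0.19, adjusted p = 0.000453, edgeR).

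COL4A1 and COL4A2, the chains of the widespread trimer, were also lower in 3DF. COL4A1 was measured at 1.81, 2.65 and 1.39 FPKM in 2DC and at 0.463, 1.02 and 0.622 FPKM in 3DF. COL4A2 was measured at 1.31, 1.72 and 0.899 FPKM in 2DC and at 0.271, 0.637 and 0.418 FPKM in 3DF. Neither chain overlapped between the conditions, as was the case for 5103 of 13493 genes tested. The log2 fold changes of COL4A1 and COL4A2 were -1.48 (SE 0.34, adjusted p = 0.0196, edgeR) and -1.58 (SE 0.35, adjusted p = 0.0187, edgeR). COL4A5 (log2 fold change -1.16, SE 0.44, adjusted p = 0.120, edgeR) and COL4A6 (-1.05, SE 0.55, adjusted p = 0.244, edgeR) overlapped between the conditions and were not DEGs. DEGs were called at a threshold of 0.05 on the adjusted p together with an absolute log2 fold change that reached 1. In all, 4 of the 6 chains were DEGs in 3DF vs. 2DC, all of them lower, where 7.56% of all genes tested were DEGs, and the median log2 fold change was -1.53 over the chains and 0.01 over all genes. DESeq2 called 5 chains, COL4A5 among them (adjusted p = 0.036).

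The calls of COL4A1 and COL4A2 in 3DF vs. 2DC were lost when 2DC replicate 2 or 3DF replicate 3 was left out (2 chains called), whereas without 3DF replicate 1 all 4 held. Library names carry prefixes whose meaning the labels do not give, and the prefix E6 was shared by a library of each of these conditions. Within it the log2 FPKM difference (3DF minus 2DC) was -2.04 for COL4A3, -1.41 for COL4A4, -1.58 for COL4A1 and -1.73 for COL4A2, but 0.18 for COL4A5 and -0.04 for COL4A6. The 2DC library of that prefix, replicate 3, had the lowest level of all 6 chains among the 2DC libraries. ALCAM was at 44.9 to 66.4 FPKM in 2DC and 25.7 to 33.7 FPKM in 3DF, and SLC4A4 at 49.4 to 66.0 and 19.8 to 27.4 FPKM. Myofibroblast markers summed to 4.94 to 7.48 FPKM in 2DC and 0.715 to 1.07 FPKM in 3DF. Summed epithelial markers (0.568 to 1.53 FPKM in 2DC, 8.94 to 13.9 FPKM in 3DF) and vascular endothelial markers (33.3 to 62.6 and 117 to 119 FPKM) were higher in 3DF. The part of these markers in the chain differences was not tested.

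**Figure D2:**
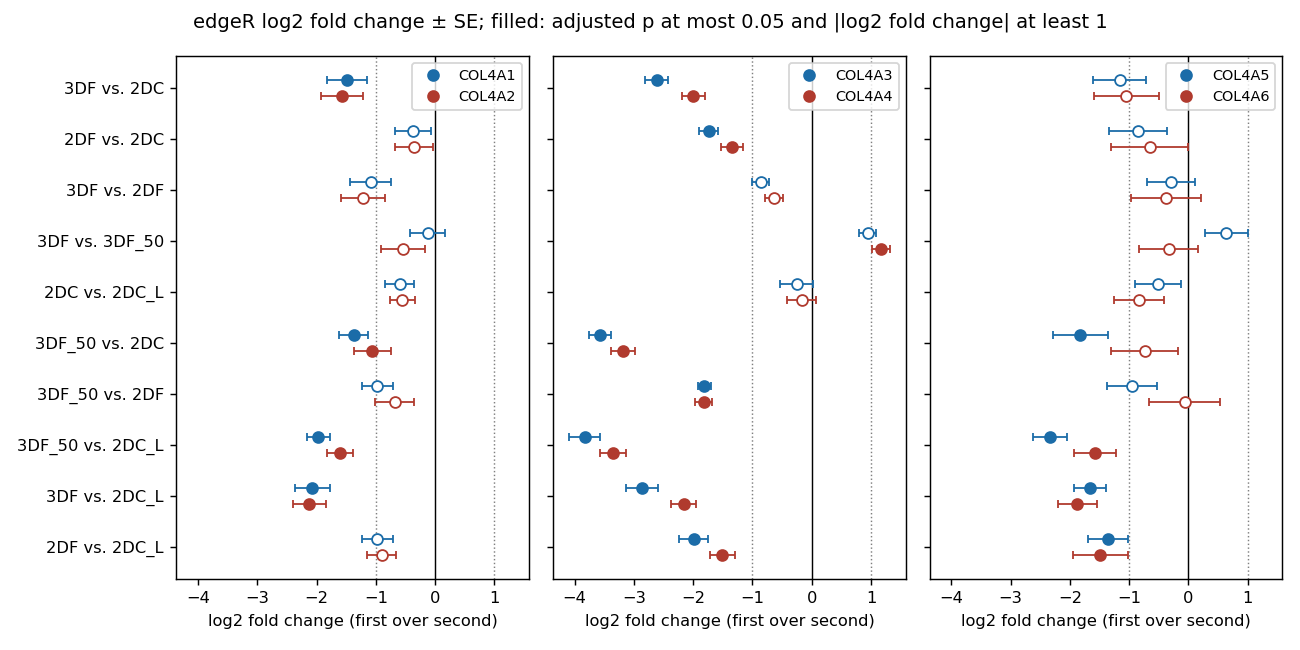
Log2 fold change (edgeR, bars show SE) of each chain in the 10 comparisons of conditions, 1 panel per pair; filled points are DEGs, and dotted lines mark a log2 fold change of 1 in either direction. COL4A3 and COL4A4 are DEGs in every comparison of a matrix condition with a collagen-coated condition, down to -3.83 for COL4A3 in 3DF_50 vs. 2DC_L, while COL4A6 is a DEG only against 2DC_L.

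On top of the matrix, in 2DF, the major pair was again lower than in 2DC. COL4A3 was measured at 72.4, 78.1 and 72.4 FPKM and COL4A4 at 54.3, 71.1 and 60.3 FPKM in the 2DF libraries, below every 2DC library. Over all genes, 4673 of 13258 tested did not overlap between 2DF and 2DC. COL4A3 differed by a log2 fold change of -1.74 (SE 0.16, adjusted p = 0.000442, edgeR) and COL4A4 by -1.34 (SE 0.19, adjusted p = 0.00243, edgeR). These were the 2 chains called of 6 in 2DF vs. 2DC, where 4.96% of all genes tested were DEGs.

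The other pairs overlapped between 2DF and 2DC. COL4A1, at 1.03, 1.30 and 2.15 FPKM in 2DF, had a log2 fold change of -0.38 (SE 0.30, adjusted p = 0.439, edgeR) and COL4A2 of -0.35 (SE 0.32, adjusted p = 0.499, edgeR). COL4A5 ranged from 0.388 to 1.26 FPKM and COL4A6 from 0.0939 to 0.677 FPKM in 2DF, and their log2 fold changes were -0.85 (SE 0.49) and -0.65 (SE 0.65). No library prefix was shared by 2DF and 2DC, so no within-prefix value exists. With all 5 conditions and the prefix in the fit, the log2 fold change of COL4A3 was -1.63 and of COL4A4 -1.22, and 0 chains were called (adjusted p = 0.331 and 0.412, edgeR). That fit called 16 of 14036 genes in 2DF vs. 2DC, against 816 with all 5 conditions and no prefix.

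The comparison of 3DF with 2DF sets cells within the matrix against cells on top of a matrix of the same kind. The paper states that effective cell density was lower in 3D than in 2D. Position and density cannot be told apart in this or the other comparisons of 3D with 2D. COL4A3 and COL4A4 were again lower, with no overlap, by log2 fold changes of -0.86 (SE 0.14, adjusted p = 0.00688, edgeR) and -0.64 (SE 0.15, adjusted p = 0.0364, edgeR). Both passed the adjusted p and neither reached a log2 fold change of 1, so that neither was a DEG. COL4A1 and COL4A2 did not overlap between 2DF and 3DF either, and they had larger log2 fold changes, of -1.09 (SE 0.34, adjusted p = 0.0999, edgeR) and -1.21 (SE 0.37, adjusted p = 0.0933, edgeR). COL4A5 (-0.29, SE 0.40) and COL4A6 (-0.38, SE 0.59) overlapped. Over all genes, 3871 of 13195 tested did not overlap between 3DF and 2DF.

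By the edgeR test 0 of 6 chains were DEGs in 3DF vs. 2DF, where 3.78% of all genes were. An unadjusted p below 0.05 was found for 4 of the 6 chains and for 2889 of 13195 genes tested (edgeR). DESeq2, edgeR without a filter on low counts, and edgeR with all 5 conditions in the fit each called 2 chains, COL4A1 and COL4A2 (adjusted p = 0.0238 and 0.0221 by DESeq2). Leaving out 3DF replicate 2, the highest 3DF library of both, also called these 2 chains.

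At the lower number of embedded cells the major pair was lower still. In 3DF_50, COL4A3 was measured at 22.0, 18.3 and 22.2 FPKM and COL4A4 at 18.7, 14.1 and 19.1 FPKM, below all 3DF libraries. Over all genes, 3900 of 13285 tested did not overlap between 3DF and 3DF_50. The level in 3DF was higher than in 3DF_50 by a log2 fold change of 1.17 for COL4A4 (SE 0.15, adjusted p = 0.0318, edgeR) and of 0.94 for COL4A3 (SE 0.14, adjusted p = 0.0318, edgeR). COL4A4 was thus the 1 chain called of 6, where 0.452% of all genes tested were DEGs.

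The remaining chains overlapped between 3DF and 3DF_50, and COL4A1 had log2 fold change -0.13 (SE 0.30), COL4A2 -0.54 (SE 0.37), COL4A5 0.64 (SE 0.37) and COL4A6 -0.33 (SE 0.50). Within the prefix E7, which both conditions share, COL4A3 and COL4A4 differed by 0.91 and 1.05 on the log2 FPKM scale. The call of COL4A4 was lost without 3DF replicate 3 (adjusted p = 0.0504, edgeR), without 3DF_50 replicate 1 (adjusted p = 0.116, edgeR) and without 3DF_50 replicate 2 (adjusted p = 0.147, edgeR), with log2 fold changes of 1.23, 1.22 and 1.04. It was also lost with all 5 conditions and the prefix in the fit (log2 fold change 1.24, adjusted p = 0.184, edgeR), where 0 chains were called. That fit called 10 of 14036 genes in 3DF vs. 3DF_50, against 196 without the prefix.

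The same order continued against the other conditions. Between 3DF_50 and 2DC, 5 of 6 chains were DEGs, all lower, where 11.6% of all genes were DEGs. COL4A3 fell 11.9-fold (log2 fold change -3.58, SE 0.18, adjusted p = 4.81e-06, edgeR) and COL4A4 9.09-fold (-3.18, SE 0.20, adjusted p = 1.08e-05, edgeR). COL4A1 (-1.37, SE 0.24), COL4A2 (-1.06, SE 0.30) and COL4A5 (-1.82, SE 0.46) were called too, while COL4A6 (-0.74, SE 0.57, adjusted p = 0.337, edgeR) was not. The calls of COL4A2 and COL4A5 were lost, leaving 3 chains, when 2DC replicate 2, 3DF_50 replicate 2 or 3DF_50 replicate 3 was left out. Between 3DF_50 and 2DF, 2 chains of 6 were DEGs, where 4.45% of all genes were, and COL4A3 and COL4A4 both fell by 1.82 on the log2 scale (SE 0.11 and 0.15). Within the prefix E5 they differed by -1.99 and -1.94 on the log2 FPKM scale. With the prefix in the fit of all 5 conditions, the call of COL4A3 was lost (-2.0, adjusted p = 0.0616, edgeR) and COL4A4 was the 1 chain called. That fit called 236 of 14036 genes in 3DF_50 vs. 2DF, against 645 without the prefix. COL4A1 was lower in that comparison with a log2 fold change of -0.97 (SE 0.26, adjusted p = 0.0334, edgeR), just short of the fold threshold. Without 2DF replicate 1, 4 chains were called, with COL4A1 and COL4A5 added.

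Direct lysis served as the control for the incubation in digestion medium. Of the 6 chains 0 were DEGs in 2DC vs. 2DC_L by edgeR and 0 by DESeq2, where 0.265% of all genes were DEGs by edgeR. All 6 chains had higher means in 2DC_L, and COL4A1 (log2 fold change -0.60, SE 0.25, unadjusted p = 0.0413, adjusted p = 0.865, edgeR) and COL4A2 (-0.55, SE 0.21, unadjusted p = 0.0311, adjusted p = 0.839, edgeR) were the 2 chains with an unadjusted p below 0.05. So low an unadjusted p was found for 780 of 13608 genes tested (edgeR). COL4A2 was measured at 1.98, 1.88 and 1.91 FPKM in 2DC_L, all above the 2DC libraries, and COL4A6 at 1.26, 1.13 and 1.13 FPKM, a range that the highest 2DC library of 1.16 FPKM entered. Over all genes, 1747 of 13608 tested did not overlap between 2DC and 2DC_L. COL4A3 (-0.25, SE 0.28) and COL4A4 (-0.17, SE 0.24) overlapped, and both changed sign when 2DC_L replicate 3, their highest library, was left out (0.11 and 0.10), COL4A4 also without 2DC replicate 3 (0.01). Within the prefixes E2 and E3, each shared by a library of both conditions, COL4A3 was higher in 2DC by 0.19 and 0.39 on the log2 FPKM scale and COL4A4 by 0.20 and 0.38.

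Against 2DC_L the low chains reached the threshold more often. All 6 chains were DEGs and lower in 3DF vs. 2DC_L, where 10.2% of all genes were DEGs, with log2 fold changes from -1.66 for COL4A5 (SE 0.27) to -2.86 for COL4A3 (SE 0.27). All 6 were DEGs and lower in 3DF_50 vs. 2DC_L as well, where 13.5% of genes were DEGs, from -1.57 for COL4A6 (SE 0.35) to -3.83 for COL4A3 (SE 0.26). In 3DF vs. 2DC_L, 2 calls were lost with all 5 conditions and the prefix in the fit. They were COL4A5 (-0.84, adjusted p = 0.194, edgeR) and COL4A6 (-0.96, adjusted p = 0.0958, edgeR). That fit called 1320 of 14036 genes in 3DF vs. 2DC_L, against 1429 without the prefix. In 2DF vs. 2DC_L, 4 chains were DEGs, where 7.39% of genes were. COL4A3 (-1.99, SE 0.24), COL4A4 (-1.51, SE 0.21), COL4A5 (-1.35, SE 0.34) and COL4A6 (-1.49, SE 0.46) were called, and COL4A1 (-0.97, SE 0.26) and COL4A2 (-0.90, SE 0.25) passed the adjusted p but not the fold. The call of COL4A6 held in 2 of the 6 fits that left out a library (without 2DF replicate 1 or 2), and that of COL4A5 in 4 (not without 2DC_L replicate 3 or 2DF replicate 2), so that 2 chains were called without 2DC_L replicate 3. With all 5 conditions and the prefix in the fit, 0 chains were called in 2DF vs. 2DC_L (adjusted p = 0.189 for COL4A3 and 0.284 for COL4A4, edgeR). That fit called 87 of 14036 genes in 2DF vs. 2DC_L, against 1037 without the prefix. The comparisons with 2DC_L and with 2DC share the matrix libraries, so they are not independent of each other, and none of the calls against 2DC_L was tested as a difference from the calls against 2DC.

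Over all 5 conditions in a single fit, 5 of 6 chains differed (edgeR F test, adjusted p at most 0.05), where 41.8% of 14036 genes did. The adjusted p was 1.25e-08 for COL4A3, 3.66e-08 for COL4A4, 0.000148 for COL4A1, 0.000595 for COL4A2, 0.0031 for COL4A5 and 0.0555 for COL4A6 (edgeR). By mean FPKM, COL4A3 and COL4A4 were ordered 2DC_L, 2DC, 2DF, 3DF and 3DF_50 from the highest to the lowest. The collagen-coated conditions overlapped for both chains, and no later step of the order did. The numbers of all genes without overlap at these steps are given with each comparison above. COL4A5 kept the same order of means, from 2.16 ± 0.474 FPKM in 2DC_L to 0.428 ± 0.191 FPKM in 3DF_50 (SD, n = 3), but its neighbouring conditions overlapped. COL4A1 and COL4A2 were lowest in 3DF (0.701 ± 0.286 and 0.442 ± 0.184 FPKM), below 3DF_50 (0.751 ± 0.0934 and 0.632 ± 0.226 FPKM), with overlap between those conditions.

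The partners of each pair rose and fell together across libraries. Over the 15 libraries, the Pearson correlation of log2 FPKM was 0.97 for COL4A1 with COL4A2, 0.99 for COL4A3 with COL4A4 and 0.86 for COL4A5 with COL4A6. COL4A3 and COL4A4 had the same rank order in all 15 libraries (Spearman's rho 1). These correlations are descriptions over libraries that share conditions and, in part, library prefixes. After the mean of each condition was removed, they were 0.89, 0.95 and 0.87. Across pairs the same measure was lower, from 0.20 for COL4A2 with COL4A3 to 0.78 for COL4A2 with COL4A5.

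**Figure D3:**
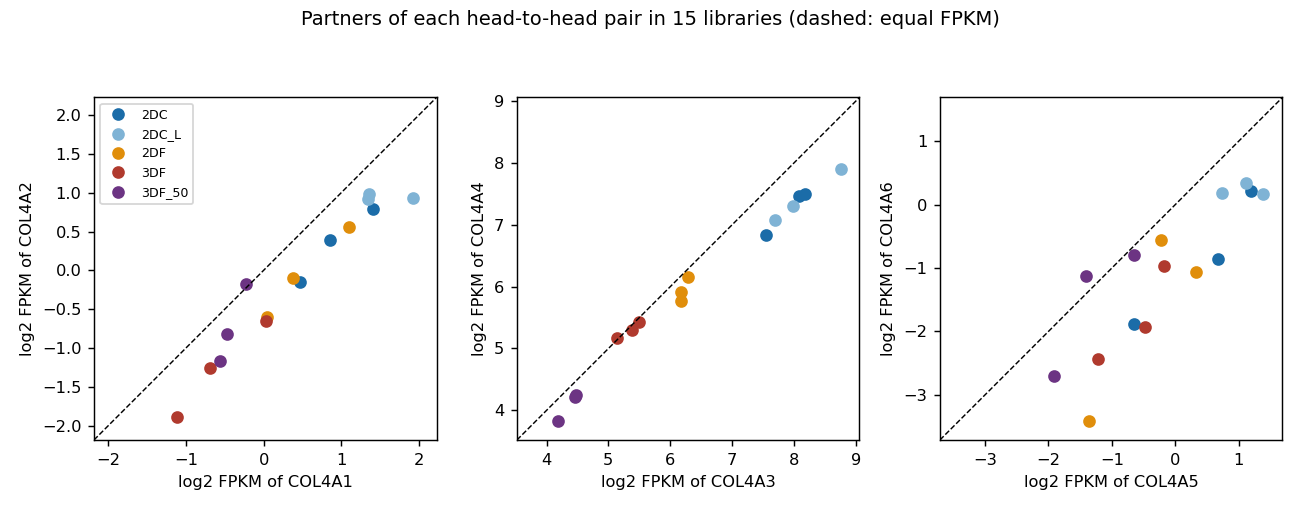
Log2 FPKM of the partners of each head-to-head pair in the 15 libraries (points, colored by condition); the dashed line marks equal FPKM. COL4A3/COL4A4 follow a line over a 23.7-fold range of COL4A3. With COL4A3 on the horizontal axis, they lie farthest below the dashed line in the collagen-coated libraries. The ratio of COL4A3 over COL4A4 is 1.53 to 1.81 there, against 0.986 to 1.06 in 3DF and 1.17 to 1.29 in 3DF_50. COL4A5/COL4A6 scatter more (SD of the log2 ratio 0.60 against 0.28).

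The balance within the COL4A3/COL4A4 pair differed between conditions. The FPKM ratio of COL4A3 over COL4A4 was 1.59 ± 0.0467 in 2DC and 1.65 ± 0.145 in 2DC_L (SD, n = 3). It was 1.21 ± 0.117 in 2DF, 1.03 ± 0.0384 in 3DF and 1.21 ± 0.0695 in 3DF_50. All 6 collagen-coated libraries lay between 1.53 and 1.81 and all 9 matrix libraries between 0.986 and 1.33, without overlap. The lower ratio is the same measurement as the larger fall of COL4A3 than of COL4A4 in 3DF vs. 2DC and 2DF vs. 2DC, and it is given without a test. A ratio of FPKM depends on the gene lengths in the table (7245 bases for COL4A3 and 10556 for COL4A4), while the fold between the ratios of different libraries does not.

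The ratio of COL4A1 over COL4A2 stayed between 0.969 and 1.99, and its condition means ran from 1.25 in 3DF_50 to 1.60 in 3DF with overlapping ranges. The ratio of COL4A5 over COL4A6 spread from 0.827 to 4.13. Its widest range was in 2DF, from 1.27 to 4.13, where COL4A6 of replicate 1 rested on 11 reads.

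**Figure D4:**
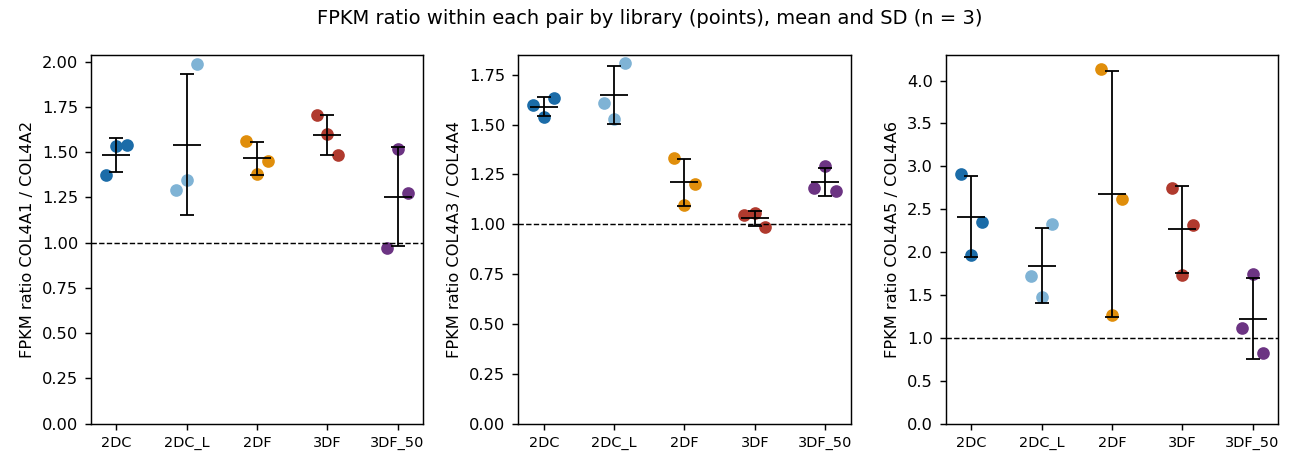
FPKM ratio within each pair by library (points), with mean and SD of the 3 libraries of each condition; the dashed line marks a ratio of 1. For COL4A3/COL4A4 the 6 collagen-coated libraries sit between 1.53 and 1.81 and the 9 matrix libraries between 0.986 and 1.33, whereas the ranges of the other pairs overlap between most conditions.

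Genes most like each chain were ranked by the Pearson correlation of log2(FPKM + 1) over the 15 libraries, among 9689 other genes. The partner was the most similar gene for COL4A1, COL4A2, COL4A4 and COL4A6, rank 2 for COL4A3 and rank 19 for COL4A5. For COL4A3 the top 3 were SVEP1, an adhesion-domain protein of the extracellular matrix (r = 0.996), COL4A4 (r = 0.993) and GRM8, a glutamate receptor (r = 0.992). For COL4A4 they were COL4A3, SVEP1 (r = 0.992) and COL14A1, a fibril-associated collagen (r = 0.992). The condition means of SVEP1 ran from 242 to 26.8 FPKM and those of COL14A1 from 471 to 65.1 FPKM. In all, 443 genes reached a correlation of 0.9 with COL4A3 and 425 with COL4A4, against 57 with COL4A1, 27 with COL4A2, 10 with COL4A5 and 0 with COL4A6. COL4A1 was followed by PGM3 and ADPGK, COL4A2 by YIPF3 and SKIV2L, COL4A5 was led by KCTD15 and COL4A1, and COL4A6 was followed by COL4A2 and TMEM143 (r between 0.863 and 0.938).

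On oryCun2, the build to which the authors aligned, COL4A1 lies at chromosome 8, positions 111524913 to 111654797 on the minus strand, and COL4A2 at 111654828 to 111791972 on the plus strand, with 30 bases between them. COL4A6 lies on chromosome X at 56776868 to 57090751 (minus) and COL4A5 at 57092119 to 57347341 (plus), 1367 bases apart. COL4A4 lies on chromosome 7 at 168760952 to 168944185 (minus) and COL4A3 at 169022061 to 169097443 (plus). In the gene models of the table the partners of this last pair are 77875 bases apart, and LOC108176893 (168976481 to 169013325, minus) lies between them with 2 to 45 reads per library. A newer RefSeq assembly of the rabbit (mOryCun1.1) places COL4A3 and COL4A4 next to each other, so a gene model of the pair in the table may be incomplete, in which case their FPKM and their ratio would be off by a factor that is the same in every library. COL4A4 overlaps RHBDD1 on the opposite strand. The strand setting of the counting was not given in the sources used here, so reads in the overlap cannot be assigned with certainty. RHBDD1 held 242 to 646 reads per library and COL4A4 2767 to 56088, and neither count would show reads left out of both genes. The level of RHBDD1 ran from 5.85 ± 0.0286 FPKM in 2DC to 3.80 ± 0.403 FPKM in 3DF_50 (SD, n = 3).

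Other genes of basement membranes and of collagen IV assembly were examined from lists, by counts. Of 19 partner genes of the basement membrane (laminins, nidogens, perlecan and others), 6 were lower and 2 higher in 3DF vs. 2DC, where 7.56% of all genes were DEGs. NID2, a nidogen that links laminin to type IV collagen, was at 34.0, 34.2 and 36.9 FPKM in 2DC and at 0.930, 0.926 and 0.90 FPKM in 3DF, a log2 fold change of -5.26 (SE 0.12, adjusted p = 5.38e-07, edgeR). COL15A1, a basement membrane zone collagen, held 29 to 60 reads per library in 2DC and 0 to 6 in 3DF, so its log2 fold change of -3.94 (SE 0.73) depends on the fit. HSPG2, which encodes perlecan, fell by 1.44 on the log2 scale (SE 0.22, adjusted p = 0.00397, edgeR). The laminin chains LAMC3 (2.69, SE 0.45) and LAMA1 (1.09, SE 0.23) rose from low levels, reaching 1.23 and 0.622 FPKM at most in 3DF. The median log2 fold change of the 19 genes was -0.73, against 0.01 over all genes.

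In 2DF vs. 2DC, 5 of the 19 partner genes were lower and 0 higher, where 4.96% of all genes were DEGs. NID2 again led, with a log2 fold change of -3.94 (SE 0.21, adjusted p = 3.37e-05, edgeR), followed by NPNT (-1.27, SE 0.15), which encodes nephronectin, and the laminin chain LAMA4 (-1.22, SE 0.25). In 3DF vs. 2DF, where 3.78% of all genes were DEGs, 1 of 18 was lower, NID2 (-1.30, SE 0.26), and 1 higher, LAMA1 (2.73, SE 0.46). Scaling by library size alone lost HSPG2 and NID1 in 2DF vs. 2DC and LAMA5 in 3DF vs. 2DC.

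Of 16 genes measured for assembly, modification and cross-linking, 6 were lower and 0 higher in 3DF vs. 2DC, where 7.56% of all genes were DEGs, with a list median of -0.97. P4HA3, a prolyl hydroxylase subunit, held 69 to 106 reads in 2DC and 2 to 4 in 3DF (log2 fold change -4.65, SE 0.47). LOXL2, which cross-links type IV collagen, fell by 1.49 on the log2 scale (SE 0.21, adjusted p = 0.00249, edgeR), and P4HA2 by 1.43 (SE 0.12, adjusted p = 0.000273, edgeR). In 3DF vs. 2DF, 5 of 16 were lower and 0 higher, where 3.78% of all genes were DEGs. They were led by P4HA3 (-2.91, SE 0.57), PXDN (-1.65, SE 0.15), the peroxidasin that forms sulfilimine cross-links in type IV collagen, and LOXL2 (-1.19, SE 0.18). PXDN was at 32.3, 42.4 and 44.2 FPKM in 2DF and at 11.9, 13.3 and 12.5 FPKM in 3DF. In 2DF vs. 2DC, where 4.96% of all genes were DEGs, 1 was lower, P4HA3 (-1.71, SE 0.41), and 1 higher, the collagen galactosyltransferase COLGALT2 (1.25, SE 0.16).

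Of 7 collagen receptors, 0 were DEGs in 3DF vs. 2DC by edgeR and 0 by DESeq2, where 7.56% of all genes were DEGs by edgeR. An unadjusted p below 0.05 was found for 3 of the 7 and for 3970 of 13493 genes tested (edgeR). ITGB1 (-0.70, adjusted p = 0.00516, edgeR) and ITGA11 (-0.61, adjusted p = 0.0245, edgeR) passed the adjusted p but not the fold. The adjusted p alone was passed by 2073 of 13493 genes. ITGA10, an integrin subunit for collagens, was higher in 2DF vs. 2DC (1.00, SE 0.17, adjusted p = 0.00624, edgeR), where 4.96% of all genes were DEGs. ITGA11, a subunit of a receptor for fibrillar collagen, was lower in 3DF vs. 2DF (-1.33, SE 0.19, adjusted p = 0.00343, edgeR), where 3.78% of all genes were DEGs. Of 7 genes for type IV collagen degradation and its inhibitors, MMP2 (1.45, SE 0.11), MMP14 (1.35, SE 0.16) and TIMP2 (1.02, SE 0.12) were higher in 2DF vs. 2DC and 0 were lower. Of all genes tested, 4.96% were DEGs in 2DF vs. 2DC. MMP2 encodes a gelatinase that degrades type IV collagen, MMP14 its membrane-bound activator, and TIMP2 an inhibitor that also takes part in that activation. In 3DF vs. 2DC, where 7.56% of all genes were DEGs, MMP14 was higher (1.21, SE 0.25) and the inhibitors TIMP1 (-2.11, SE 0.15) and TIMP3 (-1.24, SE 0.22) were lower. In 3DF vs. 2DF, where 3.78% of all genes were DEGs, TIMP1 was lower (-1.24, SE 0.29).

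Of 6 regulators known for type IV collagen genes (ZEB1, LMX1B, the TGFB ligands and SMAD3), 0 were DEGs in any of these 3 comparisons by edgeR and 0 by DESeq2. Of all genes, 7.56% were DEGs in 3DF vs. 2DC, 4.96% in 2DF vs. 2DC and 3.78% in 3DF vs. 2DF (edgeR). An unadjusted p below 0.05 (edgeR) was found for 3 of them in 3DF vs. 2DC, 4 in 2DF vs. 2DC and 3 in 3DF vs. 2DF. Over all genes tested it was found for 3970 of 13493, 3999 of 13258 and 2889 of 13195. In 2DF vs. 2DC, 4 regulators passed the adjusted p but not the fold. They were TGFB3 (0.86, adjusted p = 0.00564, edgeR), TGFB1 (0.49, adjusted p = 0.0237), SMAD3 (-0.46, adjusted p = 0.025) and TGFB2 (-0.47, adjusted p = 0.0284). TGFB2 did so in 3DF vs. 2DC too (-0.64, adjusted p = 0.0172, edgeR). The adjusted p alone was passed by 1903 of 13258 genes in 2DF vs. 2DC and 2073 of 13493 in 3DF vs. 2DC. In the comparisons of 3DF_50 with 2DC, 2DF and 2DC_L, 1 of the 6 regulators was called, the ligand TGFB2, chosen here after its values were seen. It was lower in 3DF_50 vs. 2DC (-1.52, SE 0.10), 3DF_50 vs. 2DF (-1.03, SE 0.11) and 3DF_50 vs. 2DC_L (-1.40, SE 0.14). In these comparisons 11.6%, 4.45% and 13.5% of all genes tested were DEGs. ZEB1, a repressor whose loss is linked to COL4A3 expression in corneal endothelial dystrophy, was measured between 23.6 and 34.7 FPKM in 2DC, 2DF and 3DF. LMX1B, a transcription factor linked to COL4A3 and COL4A4 in the glomerulus, was measured between 17.1 and 34.0 FPKM there.

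**Figure D5:**
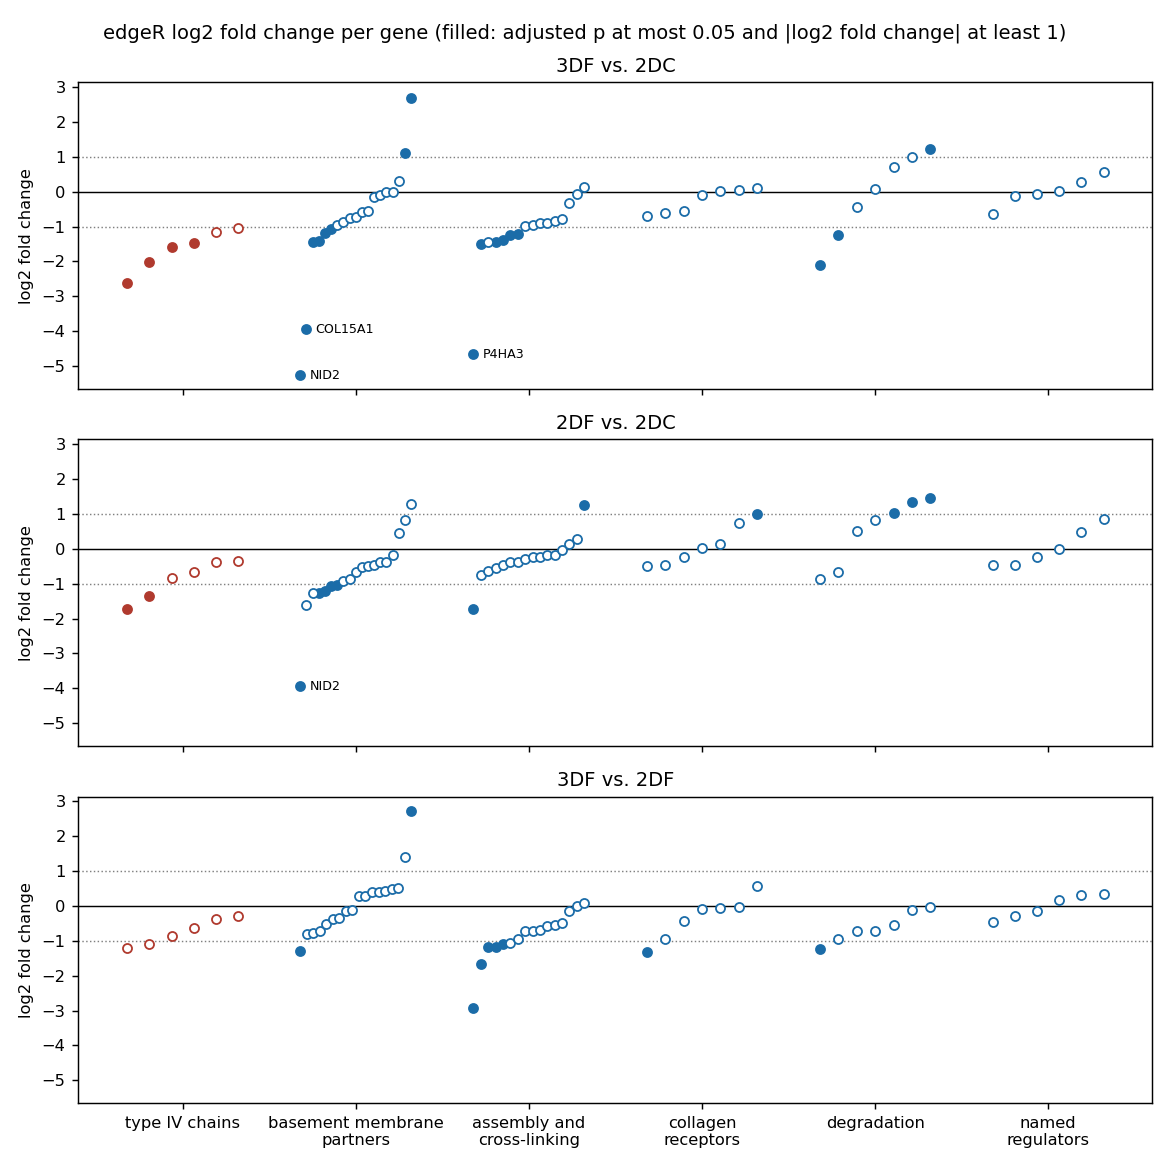
Log2 fold change (edgeR) of each chain and of each measured gene of 5 lists, with 1 panel for each comparison among 2DC, 2DF and 3DF; each point is a gene, ordered by value within its list, filled points are DEGs, and genes called beyond a log2 fold change of 3 are named. NID2 is the lowest partner gene in all 3 comparisons. Assembly genes are called lower in 3DF vs. 2DC (6 of 16, where 7.56% of all genes were DEGs) and 3DF vs. 2DF (5 of 16, where 3.78% were).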

How the data were processed

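RNA-seq of rabbit keratocytes was analysed in 15 libraries, 3 in each of 5 conditions. The authors aligned reads to oryCun2 with HISAT2 and deposited counts per gene from featureCounts, together with FPKM values and the gene length. The deposited FPKM follow from these counts, the gene length and a library total of the authors that lay at 0.921 to 1.24 of the summed counts. Whether strand was used in counting was not given in the sources used here.

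Counts were tested in edgeR 4.0.16 (R 4.3.3, limma 3.58.1) with the quasi-likelihood test after filterByExpr (minimum count 10) and TMM scaling, fitting the 6 libraries of each comparison. All 6 chains passed the filter in every comparison. P-values were adjusted over all genes tested by Benjamini-Hochberg, and DEGs were called at 0.05 on that scale with an absolute log2 fold change reaching 1. The SE is the absolute log2 fold change divided by the square root of F. Scripts were tested on simulated data. Alternatives were DESeq2 1.42.0, other scalings and filters, limma on log2(FPKM + 1) and log2(FPKM + 0.1), all conditions in 1 fit, the replicate number or the library prefix as a block, and each library left out. Ratios and correlations were computed in Python 3.11.15 with pandas 2.3.3.

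Chains and lists were chosen with earlier results of these data known. Genes named were the 6 chains, the 3 genes most like each chain (mean FPKM of at least 1), and per list and comparison at most the 3 DEGs with the largest absolute log2 fold change in each direction. ZEB1, LMX1B, LAMA5, NID1 in the lists, and ALCAM, SLC4A4, SLC4A11, CA3 and KRT12 among markers, were picked after their values were seen. Regulators and receptors that passed only the adjusted p were also named after their values were seen. Not matched to a gene identifier were P4HB, COLGALT1, MIA2, PTGDS, ALDH3A1, KRT14, EGFL7 and CNN1. Libraries of a condition come from separate experiments, and the p-values measure the spread between them. Replicate numbers were not treated as pairs, since the correlation of same-numbered deviations was above 0.1 for all 3 numbers in none of the comparisons. That rule cannot exclude pairing of single libraries, and some same-numbered libraries share a prefix. The mean correlation was highest in 2DC vs. 2DC_L (0.32, 0.061 and 0.10 in number order) and 3DF_50 vs. 2DC_L (0.14, 0.072 and 0.26). The summed level of the corneal endothelial marker list is not reported here.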

Additional observations from a re-analysis of the deposited data

How the results depend on the processing

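COL4A3 and COL4A4 stayed DEGs in every fit that left out a library, wherever they were DEGs with all libraries, except COL4A4 in 3DF vs. 3DF_50 (3 of 6 fits). Of the log2 fold changes of the chains under all alternatives, 931 kept direction and side of the threshold, 45 lost and 25 gained a call, and 19 changed sign, all of them uncalled. With the library prefix as a block, 0 chains were called in 2DF vs. 2DC, 0 in 3DF vs. 3DF_50, 1 in 3DF_50 vs. 2DF and 0 in 2DF vs. 2DC_L. Of 14036 genes, that fit called 16, 10, 236 and 87 in these comparisons, against 816, 196, 645 and 1037 without the prefix. In 3DF vs. 2DC_L the prefix block lost the calls of COL4A5 and COL4A6. Comparisons with 2DF rest there on 2DF replicate 1 alone, since the prefixes E9 and E10 occur in 2DF only. By limma on log2(FPKM + 1), 2 chains were called in each of 3DF vs. 2DC, 3DF_50 vs. 2DC and 2DF vs. 2DC_L, a scale that shrinks folds of chains below 1 FPKM. On that scale COL4A5 and COL4A6 also lost their calls in 3DF vs. 2DC_L, and COL4A2 and COL4A6 in 3DF_50 vs. 2DC_L. In 3DF vs. 2DF, 2 chains (COL4A1 and COL4A2) were called by DESeq2, without a filter and with all 5 conditions in the fit, whereas adjusted p alone called 2 others, COL4A3 and COL4A4, and the same 2 in 3DF vs. 3DF_50. Leaving out libraries gave 2 to 5 chains in 3DF vs. 2DC, 0 to 2 in 3DF vs. 2DF, 0 to 1 in 3DF vs. 3DF_50, 3 to 5 in 3DF_50 vs. 2DC, 2 to 4 in 3DF_50 vs. 2DF and 2 to 5 in 2DF vs. 2DC_L. Signs changed with the prefix block for COL4A5 (0.73) and COL4A6 (0.99) in 3DF vs. 2DF and for COL4A1 (0.24) and COL4A6 (0.31) in 3DF vs. 3DF_50. COL4A6 in 3DF_50 vs. 2DF changed sign by library size only (0.18), the replicate block (0.038), the prefix block (0.68) and limma on log2(FPKM + 0.1) (0.040). With single libraries left out, the ranges were -1.19 to 0.024 for COL4A6 in 2DF vs. 2DC, -0.64 to 0.13 for COL4A5 and -0.90 to 0.16 for COL4A6 in 3DF vs. 2DF, -0.50 to 0.11 for COL4A1 and -0.83 to 0.031 for COL4A6 in 3DF vs. 3DF_50, -0.46 to 0.11 for COL4A3 and -0.33 to 0.10 for COL4A4 in 2DC vs. 2DC_L, and -0.55 to 0.46 for COL4A6 in 3DF_50 vs. 2DF. The cause was not tested. With the replicate number as a block, which was not treated as a pairing in the main fits, 5 chains were called in 3DF vs. 2DC, 2 in 2DF vs. 2DC, 0 in 3DF vs. 2DF, 1 in 3DF vs. 3DF_50 and 5 in 3DF_50 vs. 2DC. Over all genes, 3DF vs. 3DF_50 had 60 DEGs, 202 by DESeq2, and 0 without 3DF_50 replicate 1 or 2. Scaling by library size only put the all-gene median (log2 fold change) at 0.19 in 3DF vs. 2DC and 0.37 in 3DF_50 vs. 2DC. COL4A6 rests on 11 to 244 reads per library, which limits its precision. The scaling check of the gene lists was chosen after seeing the data.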
